A study of Mus musculus and Homo sapiens with 24 samples.

Results

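Hepatocyte identity rests on a small set of DNA-binding factors, and the transcripts of 8 of them, HNF4A, FOXA1, FOXA2, FOXA3, CEBPA, ONECUT1, PROX1 and NR5A2, were followed in HepG2 cells. They were taken by symbol from the HepG2 count table, which holds 28278 genes, and each of the 8 symbols matched 1 row. HepG2 is a human hepatoma line that keeps much of the hepatocyte program. Of the 24 samples in the series, 12 were HepG2 libraries, 3 (A, B and C) in each of 4 groups: control, CoCl2, estrogen and CoCl2+estrogen. Per the labels, cells were cultured overnight in medium with serum and washed, and the agents, 50 μM cobalt chloride (CoCl2), 25 nM β-estradiol or both, were given for 4 h. The paper's cell line methods add a night in serum-free medium between wash and treatment. They list blot, RT-qPCR, luciferase and ChIP cells and do not name RNA-Seq. The labels' general protocol also mentions hypoxic culture, and no HepG2 group is labelled with it. CoCl2 stabilizes the oxygen-regulated subunit of HIF1 and is used as a chemical stand-in for hypoxia. Controls received neither agent, a vehicle is not given in the sources used here, and no variant line, transgene or deletion was involved. Nothing states whether A, B and C were separate cultures, so p-values measure the spread between these libraries, which may be technical.

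HNF4A is a nuclear receptor that sits on most promoters and enhancers active in hepatocytes, and with the FOXA factors it forms a network whose members bind one another's genes. FOXA1, FOXA2 and FOXA3 are forkhead pioneer factors that open chromatin in early liver development, and in adult hepatocytes they bind many of the same sites as the estrogen receptor. CEBPA is a leucine zipper factor of the quiescent, metabolically active hepatocyte. ONECUT1 (HNF6) is a cut-homeodomain factor that acts upstream of HNF4A and FOXA2 in development, PROX1 is a homeodomain factor of hepatoblasts that restrains HNF4A and NR5A2 activity, and NR5A2 (LRH-1) is a nuclear receptor of bile acid and cholesterol synthesis genes.

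Library totals ran from 13592637 to 21701480 counts, and the lowest and highest counts of the 8 factors in any library were 108 and 13232. The CoCl2 library B stood apart from its group: its counts differed from those of A and C by 61.4 and 42.9 in chi-square per gene, against 6.16 to 15.97 for the pairs in the other groups and 13.8 for CoCl2 A and C. The hepatocyte and hepatoma markers were all present, 12 of 12 above 1 CPM in every group, where CPM are counts-per-million with library sizes scaled by TMM over the 12 libraries. Their summed level was 30368 to 32955 CPM in control, 33117 to 33674 in CoCl2, 17193 to 18486 in estrogen and 19008 to 19806 in CoCl2+estrogen. Of 13 markers of fibroblasts, blood and endothelium, COL1A2, COL3A1, DCN, PTPRC and CD3E had no count in any library. The other 8 had counts, and 4 or 5 of the list averaged at least 1 CPM in each group. The summed level of the list was 849 to 1297 CPM over all libraries. Biliary and progenitor markers summed to 1675 to 2341 CPM, and 7 or 8 of 10 averaged at least 1 CPM in each group. CFTR was among the members at 3 counts or fewer in each library.

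The estrogen libraries and the control libraries held separate values for each of the 8 factors, and the factors moved in both directions. CEBPA fell 7.11-fold, ONECUT1 2.77-fold, FOXA1 1.60-fold, HNF4A 1.58-fold and PROX1 1.25-fold, while FOXA2 rose 3.65-fold, NR5A2 3.17-fold and FOXA3 2.28-fold; the fall of PROX1 turns to 0.06 on the log2 scale (adjusted p = 0.581, edgeR) when libraries are scaled to 5 reference genes. In all, 8 of 8 passed edgeR's quasi-likelihood test at an adjusted p of at most 0.05, 3 higher and 5 lower. The same test called 68.9% of the 16281 genes tested, 34.7% higher and 34.2% lower, and 72.1% had groups that did not overlap, so a call by itself set these factors little apart from other genes. When scaled to the 5 reference genes, all 8 values moved up, as did the median of all genes, to 0.37. HNF4A became -0.28 and FOXA1 -0.30 on the log2 scale, and both kept their calls. Since these are bulk libraries, fewer cells with a transcript and less of it per cell cannot be told apart.

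**Figure D1:**
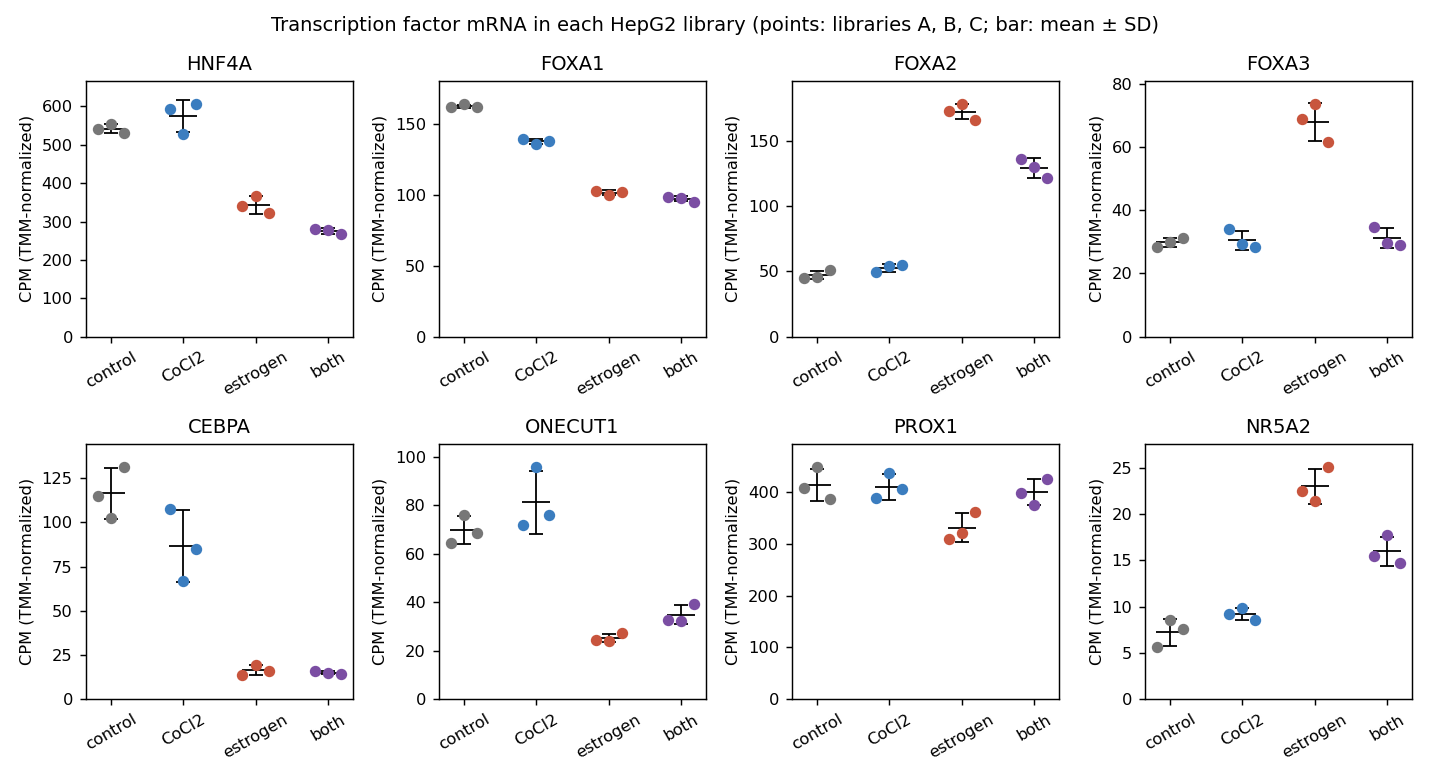
TMM-normalized CPM (y axis, from 0) of each factor in the 4 groups (x axis; "both" is CoCl2+estrogen). Points are libraries A, B and C, the long bar is their mean and the whiskers 1 SD; CEBPA lies at 14.0 to 19.5 CPM in both estrogen-treated groups against 66.9 to 131 without estrogen, and FOXA3 is high in the estrogen group alone.

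Among the nuclear receptors, HNF4A measured 541, 554 and 531 CPM in the control libraries A, B and C, and 592, 529 and 606 in the CoCl2 libraries. In the estrogen libraries it measured 341, 367 and 321 CPM, and in CoCl2+estrogen 280.5, 278 and 267. The values with estrogen lay below all values without it, and the combined group lay below estrogen alone. Against control, HNF4A fell by 0.66 on the log2 scale with estrogen (SE 0.06, adjusted p = 1.21e-07, edgeR) and by 1.01 with CoCl2+estrogen (SE 0.05, adjusted p = 6.78e-10, edgeR), while CoCl2 alone gave 0.09 (95% interval -0.05 to 0.24).

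NR5A2, the least counted of the 8, measured 5.64, 8.52 and 7.54 CPM in control and 9.17, 9.90 and 8.61 in CoCl2. It reached 22.5, 21.5 and 25.1 CPM with estrogen and 15.5, 17.7 and 14.7 with both agents. The 4 groups did not overlap at any step, from control at the bottom through CoCl2 and CoCl2+estrogen to estrogen at the top. The rise was 1.67 on the log2 scale with estrogen (SE 0.14, adjusted p = 3.68e-08, edgeR) and 1.11 with CoCl2+estrogen (SE 0.15, adjusted p = 9.98e-06, edgeR). With CoCl2 alone the estimate was 0.35 (95% interval -0.01 to 0.71) and did not pass, at an adjusted p of 0.461 (edgeR).

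The 3 forkhead factors went separate ways. FOXA1 measured 162, 164 and 162 CPM in control, 139.7, 136 and 138 in CoCl2, 103, 99.7 and 102 in estrogen and 98.7, 97.9 and 95.4 in CoCl2+estrogen. Its libraries agreed to within a coefficient of variation of 1.76% in each group, and no neighbouring groups overlapped. FOXA1 fell by 0.68 with estrogen (SE 0.06) and by 0.77 with both agents (SE 0.06) on the log2 scale, with adjusted p-values of 6.74e-08 and 2.53e-08 (edgeR).

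FOXA2 took the opposite course. It measured 45.3, 45.9 and 50.7 CPM in control, 49.5, 54.3 and 54.7 in CoCl2, 173, 178 and 166 in estrogen and 136, 130.01 and 122 in CoCl2+estrogen. Control and CoCl2 overlapped, and the estrogen libraries lay above the combined ones. Its log2 change was 1.87 with estrogen (SE 0.07, adjusted p = 5.09e-12, edgeR) and 1.42 with CoCl2+estrogen (SE 0.07, adjusted p = 5.18e-10, edgeR).

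FOXA3 was high in 1 group. It measured 28.4, 29.9 and 31.4 CPM in control, 34.04, 29.3 and 28.3 in CoCl2, 68.9, 73.6 and 61.6 in estrogen and 34.9, 29.7 and 28.9 in CoCl2+estrogen. The control, CoCl2 and combined groups overlapped, and the 3 estrogen libraries stood clear of them. Its rise with estrogen was 1.19 on the log2 scale (SE 0.08, adjusted p = 3.10e-09, edgeR), whereas CoCl2+estrogen gave 0.03 against control (95% interval -0.17 to 0.22, adjusted p = 0.807, edgeR). With scaling to 5 reference genes that last value became 0.31 (adjusted p = 0.00599, edgeR). It then lay 0.03 above the median of all genes, beside 0.04 under TMM. That likeness holds by construction and does not decide between the scalings.

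CEBPA had the largest change of the 8 in each comparison of estrogen-treated cells with cells that had no estrogen. It measured 115, 103 and 131 CPM in control, 108, 66.9 and 84.7 in CoCl2, 14.0, 19.5 and 15.8 in estrogen and 15.8, 14.7 and 14.2 in CoCl2+estrogen. Both estrogen-treated groups overlapped each other and lay far below the rest. The log2 change was -2.83 with estrogen (SE 0.12, adjusted p = 1.25e-11, edgeR) and -2.996 with both agents (SE 0.10, adjusted p = 8.56e-12, edgeR), which left 14.1% and 12.8% of the control mean.

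ONECUT1 measured 64.3, 75.8 and 68.7 CPM in control, 71.7, 95.7 and 75.8 in CoCl2, 24.3, 24.02 and 27.1 in estrogen and 32.7, 32.3 and 39.4 in CoCl2+estrogen. Estrogen alone gave the lowest values, and the combined group lay between it and control. ONECUT1 fell by 1.47 with estrogen (SE 0.08, adjusted p = 4.09e-10, edgeR) and by 1.03 with both agents (SE 0.09, adjusted p = 1.06e-07, edgeR) on the log2 scale.

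PROX1 varied least between groups. It measured 406, 448 and 387 CPM in control, 387, 437 and 406 in CoCl2, 309.8, 320.3 and 362 in estrogen and 397, 375 and 425 in CoCl2+estrogen. The estrogen libraries lay below the others, which all overlapped. The log2 change with estrogen was -0.32 (SE 0.07, adjusted p = 9.1e-04, edgeR), or 0.06 when scaled to the reference genes. With CoCl2+estrogen it was -0.08 (95% interval -0.22 to 0.06), or 0.20 under that scaling (adjusted p = 0.0405, edgeR). Taken from the median of all genes, the change with estrogen was -0.32 under either scaling. A scaling shifts all genes nearly alike, so that sameness holds by construction and does not decide between the scalings.

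**Figure D2:**
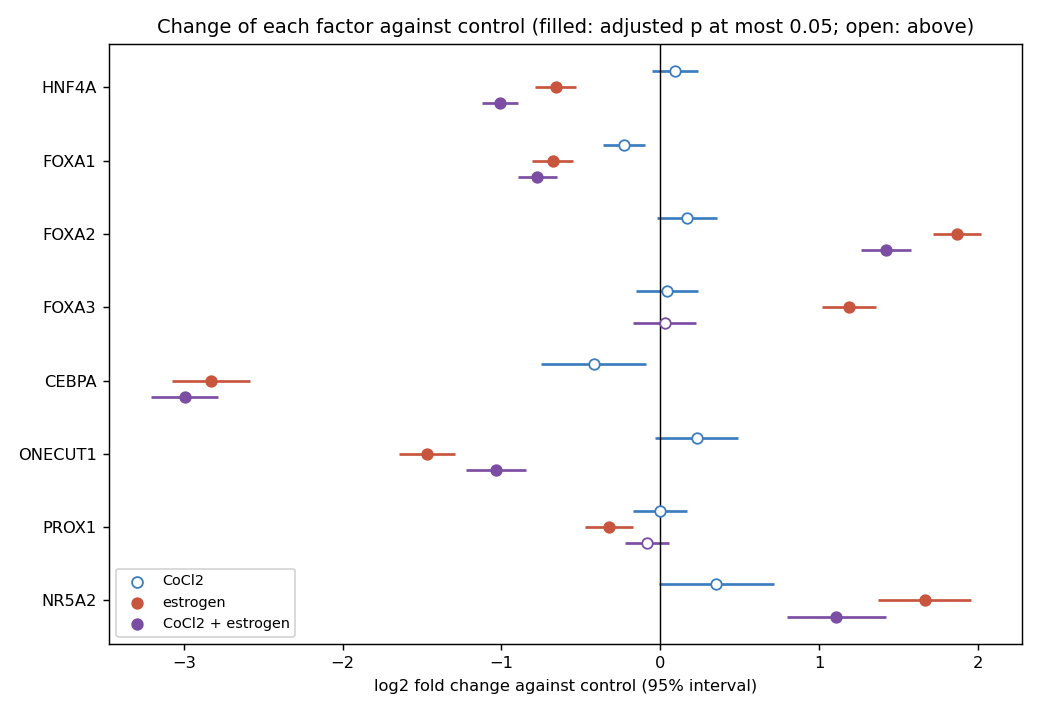
Log2 fold change against control (x axis) of each factor (y axis) with CoCl2, estrogen or both; bars are 95% intervals, filled points passed edgeR's test at an adjusted p of at most 0.05 and open points did not. All 8 estrogen points are filled and no CoCl2 point is; PROX1's estrogen change of -0.32 becomes 0.06 when scaled to 5 reference genes.

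CoCl2 alone called none of the 8 factors in edgeR's test, where it called 1.44% of 15872 genes (229; 1.31% higher and 0.132% lower), and 2 of the 8, FOXA1 and NR5A2, did not overlap with control, as did 16% of all genes. At an unadjusted p under 0.05 stood 2 of 8, FOXA1 and CEBPA, and 1789 genes in all. FOXA1 was lower in 3 of 3 CoCl2 libraries, by 0.23 on the log2 scale (SE 0.06, adjusted p = 0.12, edgeR), and it passed with DESeq2 (adjusted p = 0.0439) and with all 12 libraries in one edgeR fit (adjusted p = 0.0114). For CEBPA the log2 difference was -0.42 (SE 0.15, adjusted p = 0.318, edgeR), and it depended on which CoCl2 library was left out, at -0.61 without A (adjusted p = 0.0401, edgeR) and -0.28 without B (adjusted p = 0.522, edgeR). For FOXA2, FOXA3, ONECUT1 and PROX1 the log2 differences were 0.17, 0.04, 0.23 and 0.00, with 95% intervals reaching from -0.17 to 0.49 over the 4 genes.

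Against control, CoCl2+estrogen called 6 of 8, 2 higher and 4 lower, where 65.4% of 16201 genes were called, 32.3% higher and 33.2% lower. The same 6 did not overlap with control, beside 69% of all genes. These comparisons share the control libraries with the preceding ones. Set against CoCl2 alone, which takes the control libraries out, CoCl2+estrogen again called 6 of 8, beside 60.9% of 16200 genes (30.1% higher and 30.8% lower), and 6 did not overlap, beside 65.9%. FOXA2 rose by 1.27 (SE 0.08) and NR5A2 by 0.77 (SE 0.12) on the log2 scale, and CEBPA fell by 2.56 (SE 0.15), ONECUT1 by 1.24 (SE 0.12), HNF4A by 1.09 (SE 0.07) and FOXA1 by 0.53 (SE 0.07). FOXA3 and PROX1 did not pass, at 0.00 (95% interval -0.21 to 0.22) and -0.06 (95% interval -0.22 to 0.09); scaled to the reference genes both passed, at 0.32 (adjusted p = 0.0106, edgeR) and 0.26 (adjusted p = 0.00946, edgeR). The count was 6 without any 1 of these libraries, the CoCl2 library B included.

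The addition of CoCl2 to estrogen, which CoCl2+estrogen against estrogen measures, called 6 of 8, where 17% of 15925 genes were called, 8.14% higher and 8.85% lower. FOXA3 fell by 1.12 on the log2 scale (SE 0.09, adjusted p = 8.22e-08, edgeR). That left it at 28.9 to 34.9 CPM, which overlaps the 28.4 to 31.4 CPM of control. NR5A2 fell by 0.52 (SE 0.10), FOXA2 by 0.41 (SE 0.06) and HNF4A by 0.31 (SE 0.06). ONECUT1 rose by 0.48 (SE 0.09) and PROX1 by 0.28 (SE 0.06). PROX1 no longer passed without estrogen library A (0.23, adjusted p = 0.0563, edgeR) or with reference gene scaling (0.15, adjusted p = 0.173, edgeR). FOXA1 (-0.05, 95% interval -0.18 to 0.07) and CEBPA (-0.13, 95% interval -0.39 to 0.13) did not pass.

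Whether the estrogen effect differed with CoCl2 was tested directly by the interaction of both agents over the 12 libraries. It called 4 of 8, all with a lower estrogen effect under CoCl2, where 5.8% of 16681 genes were called, 2.1% higher and 3.7% lower. It was 4 again without the CoCl2 library B. The estrogen effect on FOXA3 was 1.19 without CoCl2 and 0.00 with it, a difference of -1.16 on the log2 scale (SE 0.14, adjusted p = 5.09e-05, edgeR). For NR5A2 the effects were 1.67 and 0.77, with a difference of -0.87 (SE 0.19, adjusted p = 0.00873, edgeR), and for FOXA2 they were 1.87 and 1.27, with a difference of -0.58 (SE 0.09, adjusted p = 8.16e-04, edgeR). Thus the 3 factors that rose with estrogen rose less, or not detectably, in the presence of CoCl2.

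HNF4A was the exception, since it fell further: its estrogen effect was -0.66 without CoCl2 and -1.09 with it, a difference of -0.41 (SE 0.10, adjusted p = 0.0166, edgeR). That call was lost without estrogen library B (-0.35, adjusted p = 0.0573, edgeR), and without the CoCl2 library B the difference was -0.47 (adjusted p = 0.00123, edgeR). For the other 4 the interaction did not pass: FOXA1 0.18 (95% interval 0.03 to 0.32, adjusted p = 0.183, edgeR), PROX1 0.28 (0.05 to 0.52, adjusted p = 0.158), ONECUT1 0.25 (-0.07 to 0.58, adjusted p = 0.434) and CEBPA 0.29 (-0.16 to 0.74, adjusted p = 0.532).

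**Figure D3:**
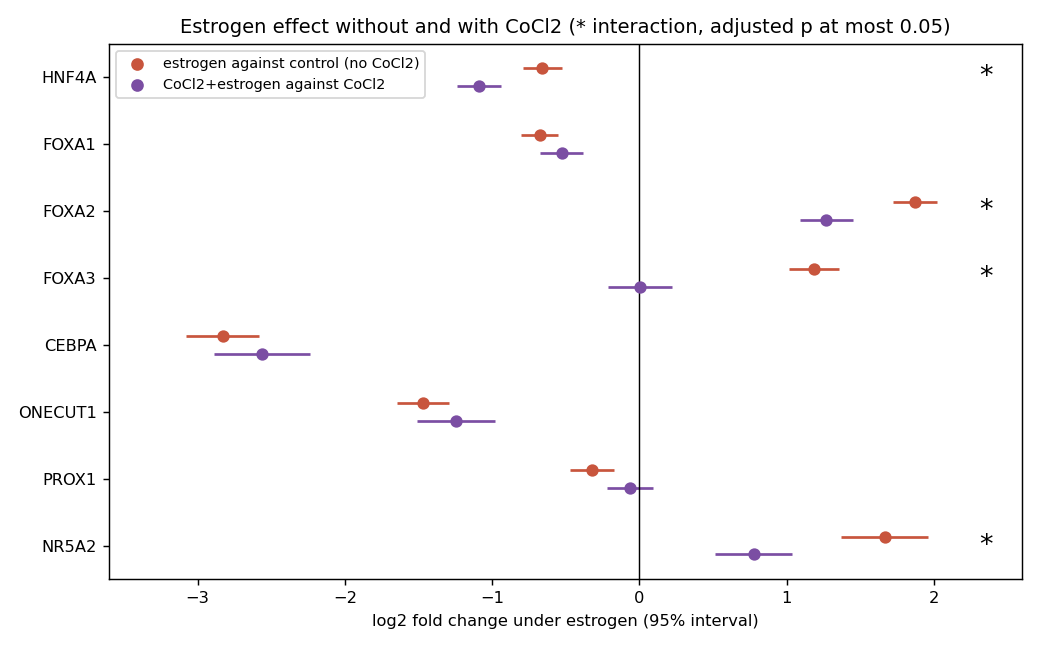
Log2 fold change under estrogen (x axis, with 95% interval) for each factor (y axis), without CoCl2 (estrogen against control) and with it (CoCl2+estrogen against CoCl2); an asterisk marks an interaction with an adjusted p of at most 0.05 in edgeR. FOXA3 goes from 1.19 to 0.00, NR5A2 from 1.67 to 0.77 and FOXA2 from 1.87 to 1.27, while HNF4A goes from -0.66 to -1.09; PROX1's -0.32 without CoCl2 becomes 0.06, and its -0.06 with CoCl2 becomes 0.26, when scaled to 5 reference genes.

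Ratios of 2 transcripts within a library do not depend on how libraries are scaled, and 3 are given. FOXA1 reads per FOXA2 read numbered 3.20 to 3.58 in control, 2.51 to 2.82 in CoCl2, 0.559 to 0.614 in estrogen and 0.723 to 0.784 in CoCl2+estrogen, so the order of their read counts reversed with estrogen. The control ratio was 5.85 times that in estrogen. FOXA3 reads per FOXA2 read went from 0.619 to 0.652 in control to 0.370 to 0.413 in estrogen and 0.228 to 0.256 in CoCl2+estrogen, and the CoCl2 libraries, at 0.518 to 0.688, overlapped control.

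CEBPA and CEBPB, its relative induced in the acute phase response and in regeneration, moved furthest apart. CEBPA reads per CEBPB read numbered 1.41 to 1.79 in control, 1.035 to 1.29 in CoCl2, 0.0489 to 0.0653 in estrogen and 0.0726 to 0.0896 in CoCl2+estrogen, which is 29.0 times lower than control in estrogen and 19.5 times lower in the combined group. Of the 9 comparisons of a treated group with control, 8 did not overlap; each of these gave an exact two-sided permutation p of 0.1, the smallest that 3 against 3 libraries allow, and 0.112 after adjustment over the 9. This test cannot reach 0.05 with 3 libraries a group.

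**Figure D4:**
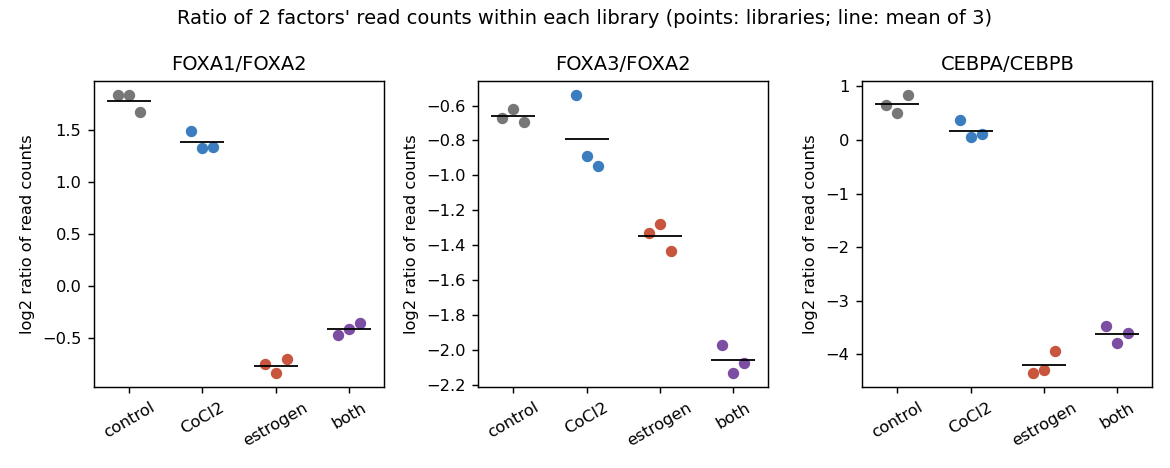
Log2 ratio of the read counts of 2 factors in the same library (y axis) in the 4 groups (x axis; "both" is CoCl2+estrogen); points are libraries and lines are means of 3. FOXA1/FOXA2 passes below 0 with estrogen, which is fewer FOXA1 than FOXA2 reads, and CEBPA/CEBPB drops from a mean of 0.66 to -4.19.

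The relatives of these factors were examined next. With estrogen, 7 of 9 tested family members passed, 5 higher and 2 lower, beside 68.9% of all genes. Scaled to reference genes, 6 were higher and 1 lower, where 11452 of 16281 genes were called, 70.7% of those higher. DDIT3, a CEBP family member that dimerizes with CEBPA and CEBPB and is induced in the stress of the endoplasmic reticulum, rose by 3.79 on the log2 scale (SE 0.09), from 5.25 ± 0.11 to 72.4 ± 5.57 CPM (SD, n = 3). HNF4G, the closest relative of HNF4A, rose by 2.16 (SE 0.08), from 13.8 ± 1.22 to 62.0 ± 3.04 CPM (SD, n = 3). CEBPB rose by 2.06 (SE 0.12) and CEBPG, a short CEBP protein that pairs with other zipper factors, by 1.65 (SE 0.07).

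CEBPD fell by 0.96 (SE 0.14) and ONECUT2 rose by 0.34 (SE 0.08). NR5A1, better known from the gonads and adrenal gland, gave -0.23 (adjusted p = 0.0115, edgeR), or 0.15 with reference gene scaling. PROX2 and ONECUT3 did not pass, at 0.47 and 1.12, and CEBPE had too few counts to test. With CoCl2 alone none of the 9 family members passed in edgeR's test, and 1.44% of all genes did. In the interaction DDIT3 (-1.72, SE 0.17) and CEBPB (-0.78, SE 0.18) passed, and DDIT3 measured 21.8 ± 3.27 CPM (SD, n = 3) in CoCl2+estrogen.

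Transcripts from the other strand of, or beside, a factor's gene were lower with estrogen in 5 of 5 cases tested, beside 34.2% of all genes. The list held 8 transcripts, of which 5 were in the count table. With reference gene scaling 3 of 5 were lower, where 70.7% of the calls over all genes were higher. CEBPA-DT, the divergent transcript at the CEBPA promoter, fell by 3.37 on the log2 scale (SE 0.25), from 7.16 ± 1.40 to 0.675 ± 0.17 CPM (SD, n = 3), beside the fall of 2.83 in CEBPA itself. LINC00261, a noncoding gene beside FOXA2, fell by 1.22 (SE 0.07), from 105 ± 3.84 to 44.9 ± 2.47 CPM (SD, n = 3), in the libraries in which FOXA2 rose by 1.87. HNF4A-AS1 (-1.81, SE 0.48, 16 counts at least in control and 3 at least in estrogen), PROX1-AS1 (-1.16, SE 0.36) and TTC6, beside FOXA1 (-0.47, SE 0.11), were the others. The library kit marked strand, but the strand setting of the counting is not given in the sources used here, so reads of overlapping antisense partners may not be separated.

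Other transcription factors of the liver were called in both directions with estrogen, in a share not far from that of all genes. With estrogen 30 of 38 tested passed, 18 higher and 12 lower, beside 68.9% of all genes. Reference gene scaling gave 26 and 6, where 11452 of 16281 genes were called, 70.7% of those higher. The median over the list was 0.16 on the log2 scale, and that of all genes was -0.00. The 5 with the smallest adjusted p all rose: RORA, an orphan nuclear receptor of lipid metabolism, by 2.56 (SE 0.08), KLF6 by 1.70 (SE 0.06), NR2F1 by 1.27 (SE 0.06), TCF7L2, a WNT pathway effector, by 1.24 (SE 0.06) and TBX3 by 1.23 (SE 0.06).

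With CoCl2 alone 4 of 39 of these factors passed, 3 higher and 1 lower, beside 1.31% of all genes higher and 0.132% lower. Among them RORA rose by 1.17 (adjusted p = 6.68e-05) and ZHX2, a repressor of AFP, by 0.64 (adjusted p = 5.97e-04) in edgeR's test. NR1H4, the bile acid receptor FXR, fell by 0.48 (adjusted p = 0.0305, edgeR), a call that was lost without any 1 of control A, B or C or CoCl2 A or C (adjusted p from 0.0554 to 0.173, edgeR). RORA measured 18.7 ± 1.71 CPM in control, 41.9 ± 3.59 in CoCl2, 110.5 ± 3.15 in estrogen and 101 ± 3.64 in CoCl2+estrogen (SD, n = 3).

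Coregulators that these factors recruit were called higher in 11 of 15 cases and lower in 3 with estrogen, beside 34.7% of all genes higher and 34.2% lower, with a median of 0.44. Reference gene scaling gave 11 and 0, where 11452 of 16281 genes were called, 70.7% of those higher. TLE3, a corepressor of the Groucho family that binds FOXA proteins, rose by 2.56 (SE 0.07), PPARGC1A, the coactivator of HNF4A in gluconeogenesis, by 1.65 (SE 0.09), and the acetyltransferases CREBBP and EP300 by 1.38 (SE 0.06) and 1.02 (SE 0.06).

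Hepatocyte products, most of them known targets of these factors, were mostly lower. With estrogen 39 of 44 tested passed, 8 higher and 31 lower, beside 34.7% of all genes higher and 34.2% lower, with a median of -0.67. Reference gene scaling gave 10 and 23, where 11452 of 16281 genes were called, 70.7% of those higher. FGA and FGG, chains of fibrinogen, fell by 2.34 (SE 0.06) and 2.44 (SE 0.07) on the log2 scale. MAT1A, the S-adenosylmethionine synthetase of differentiated hepatocytes, fell by 3.04 (SE 0.08) and APOH by 1.61 (SE 0.06).

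FGA went from 935 ± 33.9 to 185 ± 6.90 CPM and MAT1A from 114 ± 3.32 to 13.9 ± 0.93 CPM (SD, n = 3). With CoCl2+estrogen 34 of 44 passed, 5 higher and 29 lower, beside 32.3% of all genes higher and 33.2% lower, with a median of -0.67. No product passed in the interaction (0 of 44 in edgeR, against 5.8% of all genes), and with CoCl2 alone 0 of 42 passed, against 1.44%. Of the 12 hepatoma markers, 11 fell with estrogen and 1 rose, beside 34.2% of all genes lower and 34.7% higher. ALB, albumin, fell by 1.39 (SE 0.06) and AFP, alpha-fetoprotein, by 1.118 (SE 0.06). PROS1, the protein S gene that the study was about, fell by 1.05 with estrogen (SE 0.08) and by 1.16 with both agents (SE 0.08). With CoCl2 alone PROS1 gave -0.03 (95% interval -0.22 to 0.17, adjusted p = 0.943, edgeR), and its interaction was -0.04 (95% interval -0.29 to 0.21). HIF1A gave -0.39 and -0.47, of which neither passed when scaled to reference genes (adjusted p = 0.915 and 0.0881, edgeR).

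**Figure D5:**
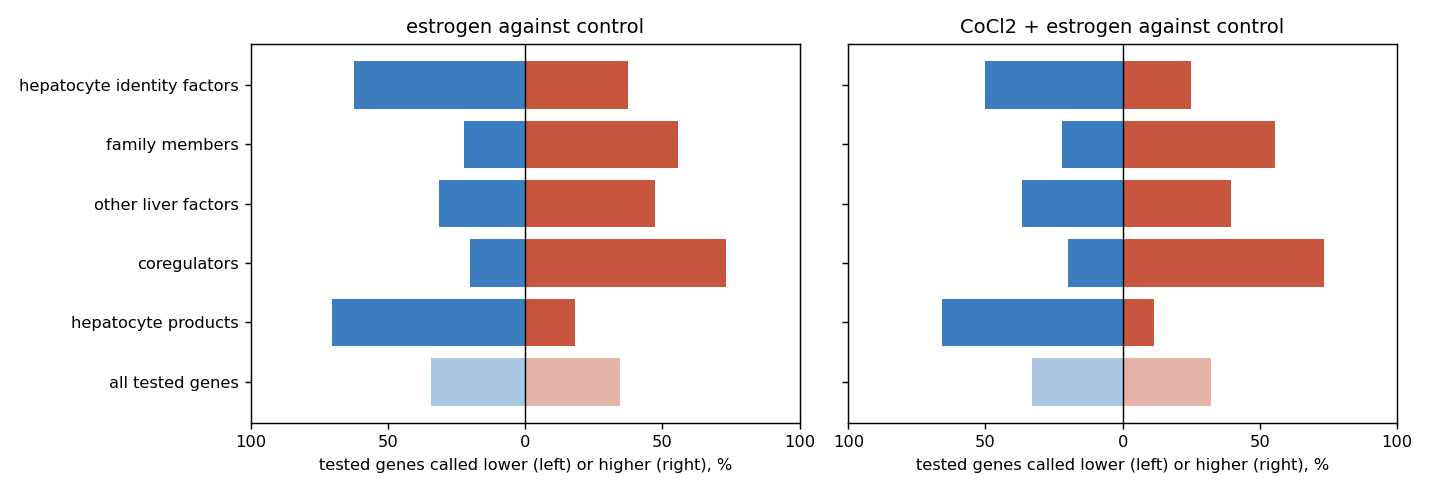
Share of the tested genes of each group (y axis) called lower (left) or higher (right) in percent (x axis) with estrogen (left panel) and CoCl2+estrogen (right panel) against control, edgeR at an adjusted p of at most 0.05; pale bars are all tested genes (34.7% higher and 34.2% lower with estrogen). Hepatocyte products reach further left and coregulators further right than all genes. With reference gene scaling the lower calls with estrogen become 4 of 8 identity factors, 6 of 38 other liver factors and 0 of 15 coregulators. That scaling moves the median of all genes with estrogen to 0.37, and 70.7% of the calls over all genes are then higher.

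Markers of other cell states were also called in these libraries, beside 34.7% of all genes higher and 34.2% lower with estrogen. With estrogen the mesenchymal markers ZEB1 and SNAI1, both repressors of epithelial genes, rose by 1.07 (SE 0.09) and 1.62 (SE 0.15), and CDH2 and FN1 by 0.31 and 0.21, the last lost with library totals alone (0.08, adjusted p = 0.12, edgeR). The fifth of 5 tested, SNAI2, gave 1.97 (adjusted p = 0.0495, edgeR; 0.121 with DESeq2), a call lost without any 1 of control A, B or C or estrogen C (adjusted p from 0.0629 to 0.138, edgeR). TWIST1 had no count and VIM at most 3 counts in each library. Of 8 biliary and progenitor markers tested, 3 rose and 4 fell: SOX9 rose by 1.04 and SOX4 by 1.01, SPP1 fell by 2.15, CD24 by 2.43 and PROM1 by 0.65, and KRT19 did not pass (-0.04). Of the 6 tested markers of fibroblasts, blood and endothelium, 1 rose and 3 fell. COL1A1, a chain of type I collagen, fell by 4.18 (SE 0.16, adjusted p = 7.66e-12, edgeR), from 20.9 ± 1.96 to 1.15 ± 0.21 CPM (SD, n = 3), CD68 fell by 0.96 and LYZ by 0.43, and PECAM1 rose by 1.26. The part of these cell states in the changes of the 8 factors was not tested.

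The genes most like each factor over the 12 libraries, by Pearson's r of log2 CPM among 13263 genes, are given as a description, since the 12 libraries fall into 4 groups and the likeness is mainly one of group means. FOXA2 was most like PPP1R15A, a phosphatase subunit of the integrated stress response, and SMOX, spermine oxidase (r = 0.998 and 0.997). NR5A2 was most like TNFSF8 (0.990) and ESR1, the gene of estrogen receptor alpha (0.9845). ESR1 measured 0.192 ± 0.09 CPM in control, 0.4998 ± 0.02 in CoCl2, 3.87 ± 1.104 in estrogen and 1.92 ± 0.40 in CoCl2+estrogen (SD, n = 3), from 2 to 74 counts a library.

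The nearest genes to CEBPA were TKFC and DGAT1, a triglyceride synthesis enzyme (both 0.9945), and to HNF4A they were EVI5L and TNS2 (both 0.9875). FOXA1 was most like ATF7IP and COG6 (0.990 each), ONECUT1 like EIF2AK2, the double-stranded RNA kinase, and CREB3L2 (0.993 and 0.991), and FOXA3 like H3C6 and NECTIN4 (0.9705 and 0.962). PROX1 had the least close neighbours, URI1 and ITFG2 (0.954 and 0.952).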

How the data were processed

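RNA-Seq was analysed from 12 HepG2 libraries; the mouse libraries of the series were not used here. Per the methods, the authors depleted ribosomal RNA with a stranded total RNA kit, removed contaminant reads with Bowtie2 2.2.5, aligned with STAR 2.7.8a and counted on RefSeq transcripts in Partek Flow. The methods text names mm10, and the submitters' processing notes list hg38 and mm10. The table deposited by the authors holds unscaled estimated counts, and 23.8% of its values are not whole numbers; 7034 of 28278 genes had no count.

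Values were rounded to whole counts (R 4.3.3). Each comparison of 2 groups used its 6 libraries and the interaction all 12, with edgeR 4.0.16 (limma 3.58.1), TMM scaling, the quasi-likelihood test on genes that exceeded 5 counts somewhere among the fitted libraries, and a Benjamini-Hochberg adjusted p of at most 0.05 over all genes tested. An SE is the log2 change divided by the square root of F, with 95% intervals from the t distribution. Adding 2 counts preceded the log2 CPM of single libraries used for correlations, and ratios were taken from counts with nothing added. Ratios were compared by exact permutation tests. Some listed genes enter the counts but are not reported here by name, and 1 planned ratio is not reported here. The functions were tested on simulated counts.

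The members and gene lists (family members, other liver factors, coregulators, hepatocyte products, markers, neighbouring transcripts, reference genes) were chosen with earlier results of these data known. The text names all 8 members and family members, neighbouring transcripts, PROS1, HIF1A, up to 5 called genes of a list with the smallest adjusted p, the 2 genes of highest r with each member from those averaging 1 CPM or more, and the markers that had few or no counts; KRT19 and ESR1's levels were added after values were seen. Estrogen lowered 3 of the 5 reference genes (ACTB by 1.13, PPIA by 0.79 and RPLP0 by 0.16 on the log2 scale under TMM) and raised none; RPLP0 rises under reference gene scaling itself, since scaling to them shifts all genes. Alternatives were DESeq2 1.42.0, 4 other scalings (median-ratio, upper-quartile, library totals, reference genes), no low-count filter, filterByExpr, a joint fit of the 12 libraries, a block for the library letter, and fits that omitted 1 library.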

Additional observations from a re-analysis of the deposited data

Results flagged for a closer look

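The effect of estrogen differed with CoCl2, by the interaction test of edgeR over 12 libraries, for the 16 genes below. The test called 5.8% of 16681 genes. The number 16 is set by the naming rule, which takes only called genes with the smallest adjusted p of each list, so it is not a share. Of the other liver factors 7 of 39 were called, and MLXIPL (-0.39) and FOXO3 (-0.33) are called but not among the 16. Each value is the log2 effect of estrogen with CoCl2 minus that without. Among the identity factors these were FOXA3 (-1.16), NR5A2 (-0.87), FOXA2 (-0.58) and HNF4A (-0.41), and among their relatives DDIT3 (-1.72) and CEBPB (-0.78). RORA differed by -1.29, from an effect of 2.56 to 1.25, and KLF6 by -1.07, from 1.70 to 0.61. ZHX2 differed by -0.40, from -0.11 to -0.53. HHEX, a homeodomain factor of liver bud formation, differed by 0.57, from -0.67 to -0.12, and NR2F2 by 0.46, from -0.57 to -0.13, the latter lost with reference gene scaling (0.38, adjusted p = 0.0618, edgeR), without estrogen library C (0.40, adjusted p = 0.0596, edgeR) and without CoCl2+estrogen library A (0.41, adjusted p = 0.06, edgeR).

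Of the coregulators, PPARGC1B differed by 1.49, from an effect of -0.27 to 1.20, and TLE3 by -0.40, from 2.56 to 2.13. Of the progenitor markers, SOX9 differed by -0.65 and SOX4 by -0.43, and CD24 by 0.85, from -2.43 to -1.60. Of the interaction calls over all genes, 36.2% were toward a higher effect with TMM, 51.6% with library totals and 18.6% with reference gene scaling.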

How the results depend on the processing

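Among the log2 changes of the 8 factors under the alternatives, 747 kept their side of the threshold and, where called, their direction, 7 gained a call, 3 lost one and 3 reversed with a call under one of the settings. Some differences near 0 that passed under neither setting also changed sign: FOXA3 (with library totals -0.02 with CoCl2, -0.07 and -0.05 with both agents against control and CoCl2), PROX1 with CoCl2 (0.06 without control library B) and CEBPA with CoCl2 added to estrogen (0.00 without estrogen library B). With CoCl2, 0 of 8 factors passed, but 1 did with DESeq2 (FOXA1), 1 with all 12 libraries in one fit (FOXA1) and 1 with the replicate block (CEBPA, -0.44, adjusted p = 0.039, edgeR). Leaving out 1 library gave 0 to 1 called with CoCl2 (CEBPA without CoCl2 library A), 8 to 8 with estrogen, 6 to 6 for CoCl2+estrogen against control and against CoCl2, 5 to 6 against estrogen and 3 to 4 in the interaction. Same-letter libraries did not deviate together more than others (r from -0.309 to 0.288, 5 of 18 pairs above 0.1), so the letters were not taken as pairs. Pairs of different letters gave -0.388 to 0.351, with 12 of 36 above 0.1. Between control and CoCl2, A with A gave 0.215, B with B 0.288 and C with C -0.0312, and different letters gave -0.388 to 0.216. The block changed no other call of a factor. Library totals gave PROX1 -0.18 with CoCl2+estrogen against control (adjusted p = 0.0248, edgeR).

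Scaling to 5 reference genes moved the median of all genes to 0.37 with estrogen, 0.28 and 0.32 for CoCl2+estrogen against control and CoCl2, and -0.12 against estrogen; library totals moved the first 2 to -0.13 and -0.10. The share of calls that were higher went from 50.3% to 70.7%, from 49.3% to 67.0%, from 49.4% to 69.8% and from 47.9% to 14.5% in the same order. Values that reversed with a call under either setting, all under reference gene scaling, were PROX1 (0.0551 with estrogen, 0.20 and 0.26 with both against control and CoCl2), NR5A1 (0.15) and RPLP0 (0.22) with estrogen, and LYZ (0.00532) with both against CoCl2. All genes called with CoCl2 numbered 229, 345 with DESeq2, 359 with all 12 libraries in one fit and from 136 to 249 without 1 library. The replicate block gave 327. With CoCl2 added to estrogen the calls numbered 2706, 1671 without estrogen library A and 3791 with the block. In each of the other comparisons the block lowered the calls, with estrogen against control from 11217 to 10620. The cause of these differences was not tested, and at 3 libraries a group small changes of low genes such as NR5A2 and HNF4A-AS1 are the least precise.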
